A study of Mus musculus with 6 samples.

Results

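Genes for the proteins of the mitochondrial ribosome were followed in OT1 CD8+ T cells, cytotoxic mouse lymphocytes that carry a T cell receptor transgene against an ovalbumin (OVA) peptide. The genes were taken by name, as protein-coding rows whose symbol begins with Mrpl (large subunit) or Mrps (small subunit) followed by a digit. This gave 78 of 27480 genes, 49 of the large and 29 of the small subunit. The study compared 3 libraries of cells with an overexpression (OE) vector and 3 of cells with OE PTMA, and PTMA is prothymosin alpha, a small acidic nuclear protein. The genotype of all 6 samples is labelled WT, and every culture received OVA peptide for 48 h. The labels give neither the promoter nor the species of the construct, nor the age of the animals. Nor do they tell whether replicates are different mice or cultures, and a p-value here covers the spread among libraries, which could be purely technical. Values of 3 libraries are listed in the order of their replicate numbers.

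Mitochondria keep their own ribosomes, which translate the few mRNAs of mitochondrial DNA, all of them for subunits of the respiratory chain and ATP synthase. Their RNA comes from mitochondrial DNA, whereas every mitochondrial ribosomal protein is encoded in the nucleus, made in the cytosol and imported. Some of these proteins have counterparts in bacterial ribosomes and others are found only in mitochondria. Activated T cells enlarge their mitochondria while they divide, and mitochondrial translation is needed for that growth and for effector function.

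Total counts ran from 54989408 to 66767589 per library, and the 78 genes took 0.400% to 0.474% of them. Expression is given in CPM, counts scaled to a common library size with edgeR's TMM factors, wherever libraries are compared. Ptma itself stood at 848, 783 and 1146 CPM in the vector and at 1152, 1346 and 1272 CPM in the PTMA libraries (log2 fold change 0.44, SE 0.13, edgeR adjusted p = 0.951). The lowest PTMA library thus lay just above the highest vector library, which was vector 3. All 10 markers of CD8 T cells were expressed, with a summed level of 10414 to 11575 CPM in the vector and 10856 to 11469 CPM in the PTMA libraries. Of the markers of other cells, 4 CD4 and regulatory T cell genes summed to 8.59 to 10.98 CPM in each library, 5 B cell genes to 4.63 to 7.32 CPM and 4 erythroid genes to 0.0765 to 0.548 CPM. A list of 10 oocyte genes summed to 26.8 to 36.4 CPM in the vector and 1.802 to 4.63 CPM in the PTMA libraries. Among these edgeR called 1 and DESeq2 called 6, against 0.0121% and 0.235% of all genes. The edgeR call was Gdf9 (log2 fold change -3.90, SE 0.39, edgeR adjusted p = 0.0397). It had 24.7, 12.5 and 19.3 CPM in the vector and 0.616, 1.87 and 1.28 CPM in the PTMA libraries. The 8 stroma and epithelium genes summed to 209 to 229 CPM in the vector and 216 to 228 CPM in the PTMA libraries. Most of that sum was Pecam1, at 203, 203 and 196 CPM in the vector and 212, 210 and 214 CPM in the PTMA libraries. Krt14 of this list was uneven, at 0, 15.3 and 18.4 CPM in the vector and 5.99, 0 and 0 CPM in the PTMA libraries (log2 fold change -2.49, SE 1.73, edgeR adjusted p = 0.951). Of the 7 genes tested in this list, 3 had positive and 4 negative log2 fold changes, against 46.8% positive among all genes. The 4 NK cell genes summed to 48.3 to 50.1 CPM in the vector and 40.9 to 45.7 CPM in the PTMA libraries. Eomes gave most of it, at 39.2, 38.8 and 38.8 CPM in the vector and 33.0, 31.0 and 36.0 CPM in the PTMA libraries. Ncr1 was at 0 in all vector libraries and at 0, 0 and 0.0609 CPM in the PTMA libraries. The 12 myeloid and dendritic cell genes summed to 355 to 384 CPM in the vector and 363 to 404 CPM in the PTMA libraries. Most of this list's sum was Ccr7, at 339, 360 and 330 CPM in the vector and 373, 342 and 332 CPM in the PTMA libraries. Itgam was at 0 in all vector libraries and at 0.231, 0 and 0.0761 CPM in the PTMA libraries. Of the 8 genes tested in this list 7 had positive log2 fold changes and 1 a negative one, against 46.8% positive among all genes. Of that list edgeR called 0 and DESeq2 called 2, Ccl22 and Fscn1, both genes of activated dendritic cells. Ccl22 had 2.09, 0.852 and 0.709 CPM in the vector and 5.99, 8.42 and 5.86 CPM in the PTMA libraries (log2 fold change 2.48, SE 0.39, edgeR adjusted p = 0.199). Fscn1 had 0.339, 0.325 and 0.0806 CPM in the vector and 1.51, 1.82 and 1.81 CPM in the PTMA libraries (log2 fold change 2.78, SE 0.50, edgeR adjusted p = 0.318). The sums of the stroma, NK cell and myeloid lists rested mostly on Pecam1, Eomes and Ccr7, so they do not measure the share of those cells. The part of these other markers in the values below was not tested. In bulk RNA, a change in the share of a cell type cannot be told apart from a change in RNA per cell.

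Levels between genes were compared in FPKM, which the authors scaled by gene length and library size. On this scale the means over 6 libraries spanned 19.5-fold, from 3.997 FPKM for Mrps35 to 78.1 FPKM for Mrpl18, with medians of 20.1 FPKM in the large and 22.8 FPKM in the small subunit. The highest in the large subunit were Mrpl18 of the central protuberance (75.9 ± 13.3 FPKM in vector and 80.4 ± 3.77 in PTMA, SD, n = 3 each), Mrpl28 (73.1 ± 5.84 and 76.8 ± 3.38), Mrpl34 (61.9 ± 8.83 and 65.1 ± 5.57), Mrpl54 (61.5 ± 5.65 and 64.7 ± 2.25) and Mrpl36 (59.6 ± 8.25 and 64.5 ± 2.82). In the small subunit they were Mrps12 of the decoding region (43.8 ± 3.35 FPKM in vector and 48.8 ± 2.23 in PTMA, SD, n = 3 each), Mrps21 (47.1 ± 7.63 and 43.7 ± 2.94), Mrps23 (38.0 ± 3.02 and 39.2 ± 0.52), Mrps6 (35.4 ± 3.59 and 38.5 ± 1.54) and Mrps7 (34.3 ± 2.04 and 36.1 ± 1.70). Among these, Mrpl34, Mrpl54 and Mrpl36 changed order from library to library. Mrpl28 lay above Mrpl34, and Mrps21 above Mrps23, in each of the 6 libraries. The lowest means were 4.19 FPKM for Mrpl48, 4.61 for Mrpl47, 5.08 for Mrpl1, 6.5997 for Mrpl32 and 6.85 for Mrpl13 in the large subunit. In the small subunit they were 3.997 FPKM for Mrps35, 4.44 for Mrps31, 5.21 for Mrps25, 5.76 for Mrps10 and 6.52 for Mrps5. Every member had at least 383 counts in every library, so none was near the detection limit.

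The order of the levels depended on which gene length was used. The length implied by count and FPKM followed the sum of all annotated exons of a gene in GENCODE M21 (for all 78 members the ratio of the 2 lay within 2% of the members' median). That sum includes exons of retained introns and minor transcripts. It was over 2 times as long as the principal transcript, the main mRNA by the APPRIS tag of GENCODE, for 20 members and over 5 times as long for 5. The largest difference was in Mrpl33, a small protein of the large subunit core with a bacterial counterpart, which has 7326 bases of exons and a principal transcript of 478 bases (chromosome 5, 31596935 to 31664384 on GRCm38). Its mean level was 7.58 FPKM, rank 67 of 78, but 116 per principal transcript length, rank 2. Mrpl42 (3682 and 666 bases) moved from rank 34 to rank 1, with 22.9 FPKM and 127 per principal transcript length. Mrpl23 of the exit tunnel moved from rank 55 to rank 8, Mrps10 of the head from rank 72 to rank 25 and Mrpl13 from rank 69 to rank 28. Across the 78 genes, which are not independent replicates, Spearman's rho between the 2 orders was 0.72, a description only. Rescaling to the principal transcript assumes that its reads make up the whole count, which was not tested here. Mrpl18 and Mrpl28 stayed among the 5 highest on both scales, and Mrps35, Mrpl48, Mrpl47, Mrpl1 and Mrps25 lay in ranks 73 to 78 on both.

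**Figure D1:**
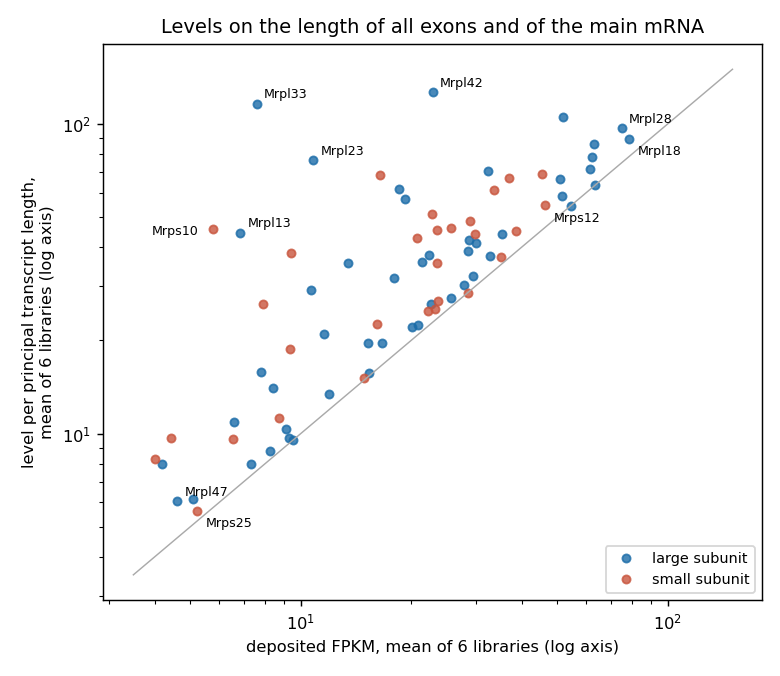
Mean level of each mitochondrial ribosomal protein gene over 6 libraries, as deposited FPKM (horizontal, log axis) and rescaled to the length of the principal transcript (vertical, log axis). Points on the grey line have the same value on both scales. Mrpl33 lies farthest above the line, at 7.58 FPKM and 116 per principal transcript length.

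Individual libraries differed more than the groups did. Vector 3 was the highest of the 6 libraries for 49 of 78 members, against 22.4% of all genes tested, and vector 1 or vector 2 was the lowest for 70 of 78, against 35.8% (vector 1 for 24, against 15.1%, and vector 2 for 46, against 20.8%). Vector 3 lay above both other vector libraries in 72 of 78 members, against 39% of all genes. A PTMA library was the lowest in 6 of 78, against 43.5%. Relative to each member's mean over 6 libraries, the large subunit had medians of -0.11, -0.17 and 0.18 on the log2 scale in the vector and 0.03, 0.11 and -0.02 in the PTMA libraries. The small subunit had -0.10, -0.16 and 0.15 in the vector and 0.02, 0.12 and -0.01 in the PTMA libraries. Both subunits therefore kept the same order of libraries, with vector 3 at the top, PTMA 2 next and vector 2 at the bottom. The vector group spanned the 3 PTMA libraries on both sides.

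**Figure D2:**
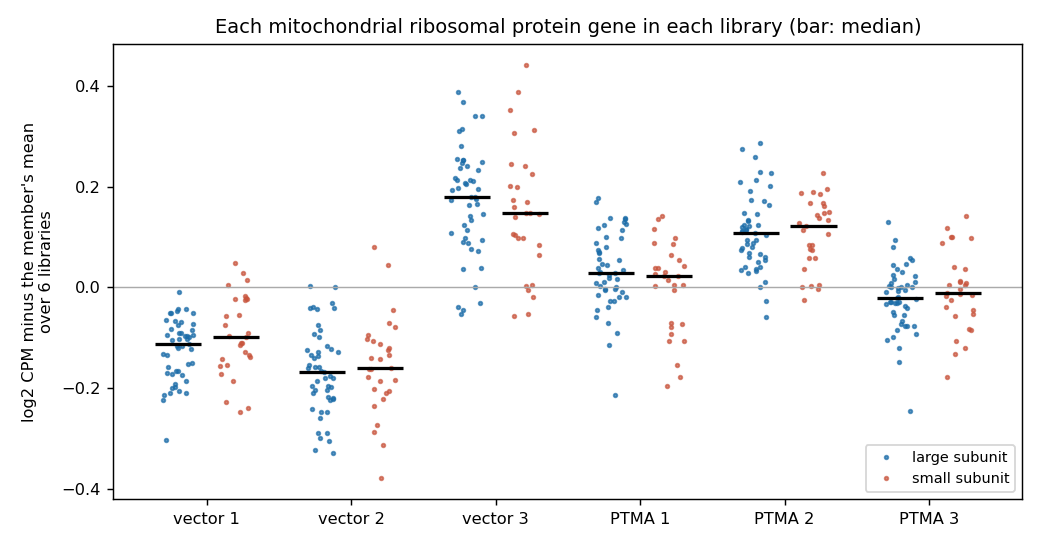
Each point is 1 gene in 1 library, as log2 CPM minus that gene's mean over the 6 libraries (vertical), with the libraries along the horizontal axis and black bars at the medians of the 49 large subunit and 29 small subunit genes. The medians of vector 3, at 0.18 and 0.15, lie above those of every other library.

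The step from vector 1 and 2 to vector 3 was largest in Mrps18c of the small subunit, which had 29.0 and 27.5 CPM in vector 1 and 2 and 46.5 CPM in vector 3, 1.64-fold their mean. In the PTMA libraries Mrps18c had 34.8, 38.4 and 32.3 CPM, all between those extremes. At the other end, Mrps2 of the small subunit had 54.2, 50.8 and 50.5 CPM in the vector and 53.9, 52.6 and 52.5 CPM in the PTMA libraries. Vector 3 lay below the mean of vector 1 and 2, on the log2 scale, in Mrps2, Mrps18b and Mrpl4, and above it in the other 75 members.

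Transcript length moved with this step in other protein-coding genes, and less so in the members. Members had a median principal transcript of 1302 bases, against 2960 bases in 8408 other protein-coding genes with a mean over 10 CPM. In those other genes the median difference of vector 3 from vector 1 and 2 went from 0.33 on the log2 scale for principal transcripts up to 1000 bases (493 genes) to 0.20, 0.07, -0.0056 and -0.16 in the 4 longer classes. In the members it was 0.37, 0.27, 0.22, 0.37 and 0.27 in the same classes, from 24 genes up to 1000 bases to 9 genes over 4000 bases. It was thus positive in every length class and did not fall steadily with length. Across genes, as a description, Spearman's rho between length and the step was -0.53 in the other genes and -0.25 in 77 members. The part of transcript length in the members' values was not tested.

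**Figure D3:**
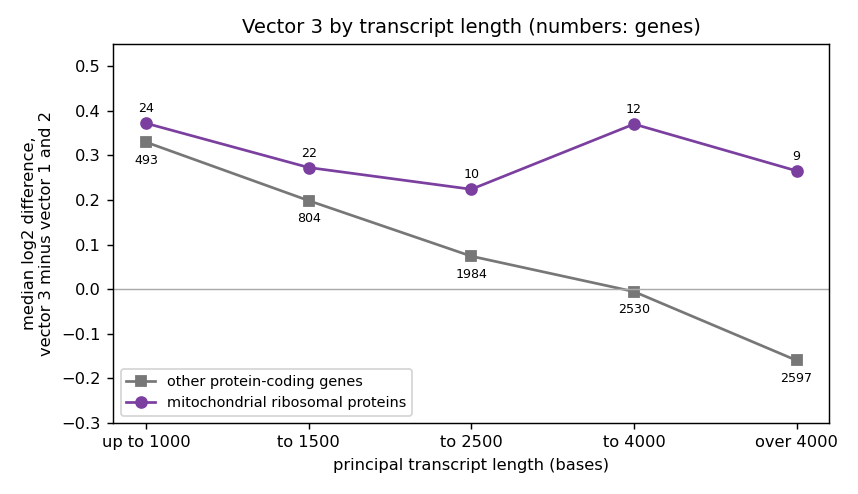
Median log2 difference of vector 3 from the mean of vector 1 and 2 (vertical) in classes of principal transcript length in bases (horizontal), for 77 mitochondrial ribosomal protein genes and 8408 other protein-coding genes with a mean over 10 CPM. Numbers give the genes per class. The other genes go from 0.33 to -0.16 and the members lie between 0.22 and 0.37.

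PTMA was compared with vector to ask how its overexpression bears on the mitochondria of these cells, the question named in the series title. No mitochondrial ribosomal protein gene passed the test (edgeR quasi-likelihood test, adjusted p = 0.951 to 0.999 over 16592 genes, of which 0.0121% were called). All 78 members passed the filter on low counts. At an unadjusted p under 0.05 there were 2 members, both with positive log2 fold changes, against 1.92% of all genes in that direction, and 0 with negative ones, against 2.72%. DESeq2 also called 0 members, against 0.235% of all genes. The log2 fold changes were small: their medians were 0.07 in the large and 0.06 in the small subunit, against -0.01 over all genes, and SEs ran from 0.06 to 0.21. They were positive in 45 of 49 large subunit genes and 24 of 29 small subunit genes, against 46.8% of all genes.

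These counts and medians moved with single libraries. With libraries scaled to the same sum the positive genes were 39 of 49 and 21 of 29, with medians of 0.04 and 0.04, against 40.4% of all genes. Without vector 3 they were 49 of 49 and 27 of 29, with medians of 0.19 and 0.17, against 48.5% of all genes. Without vector 2 they were 30 of 49 and 17 of 29, with medians of 0.0087 and 0.013, against 49.1% of all genes. Without vector 1 they were 34 and 19, with medians of 0.03 and 0.03, against 45.9% of all genes. Without PTMA 2 they were 38 and 18, with medians of 0.04 and 0.02, against 46.8% of all genes. Without PTMA 3 the medians were 0.12 and 0.09. All 3 PTMA libraries lay above vector 1 and 2 in 52 of 78 members, against 17.4% of all genes, and below them in 0, against 17.8%. Without vector 3, 29 of 78 members had an unadjusted p under 0.05 and a positive log2 fold change, against 7.68% of all genes, and 0 had one with a negative log2 fold change, against 7.75%. After adjustment 0 members passed, against 0.00578% of all genes (lowest edgeR adjusted p of a member with any library left out, 0.196).

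**Figure D4:**
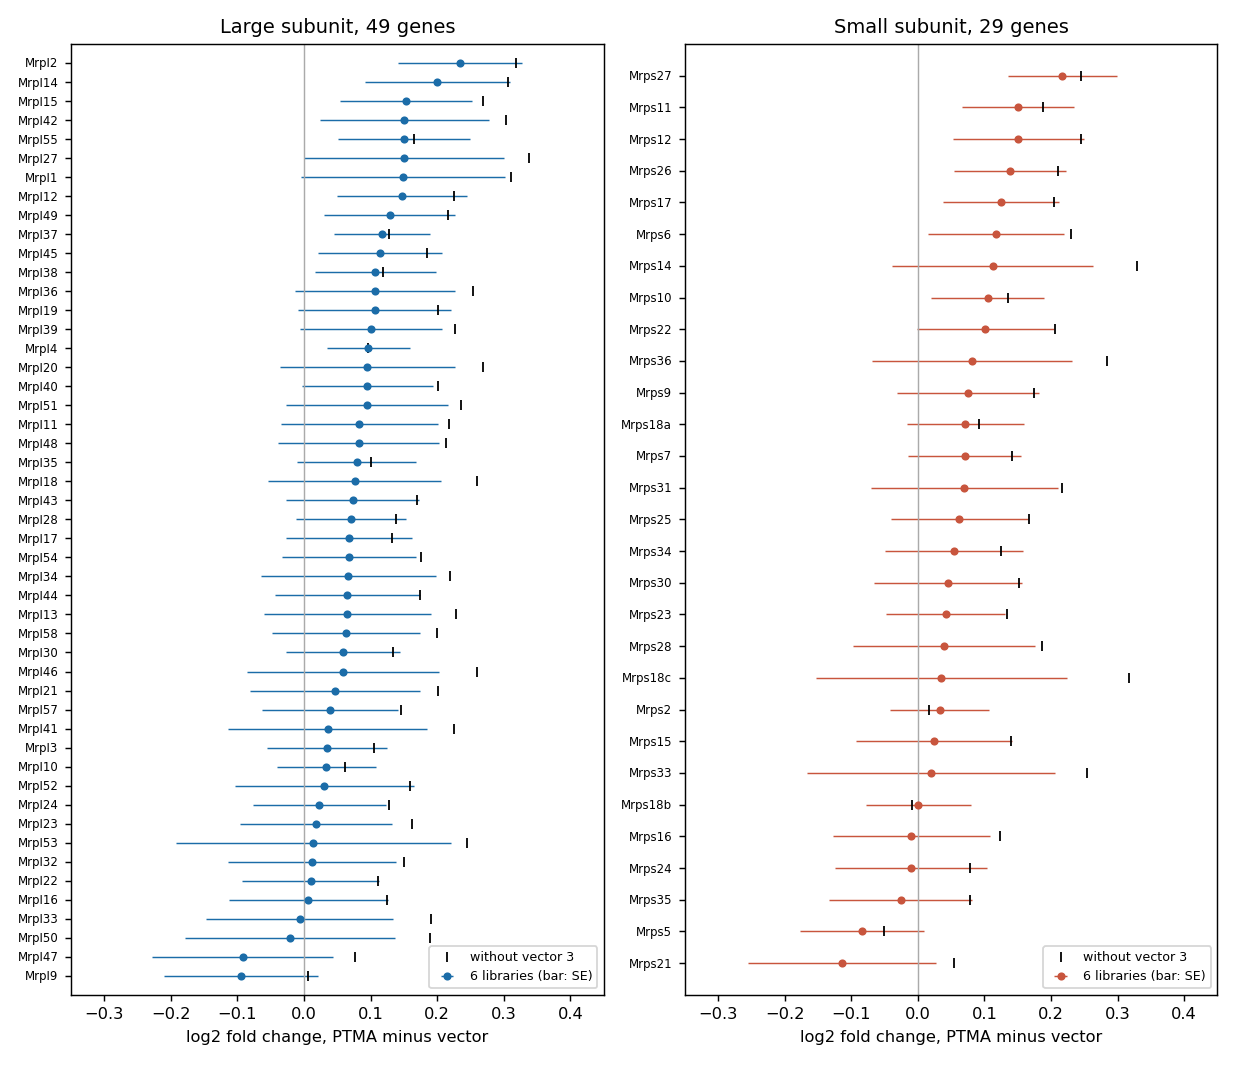
Log2 fold change of PTMA minus vector (horizontal) for each of the 49 large subunit and 29 small subunit genes, with points and SE bars from the edgeR fit of 6 libraries and black ticks from the fit without vector 3. Most ticks lie to the right of the points, and the median of the large subunit is 0.07 for the points and 0.19 for the ticks.

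In 3 members all PTMA libraries lay above all vector libraries, against 5.39% of all genes tested, and in 0 members below, against 5.38%. The member with the smallest p was Mrps27 (ENSMUSG00000041632), a small subunit protein with pentatricopeptide repeats that is found only in mitochondria. It had 49.5, 50.9 and 52.9 CPM in the vector and 60.7, 62.5 and 54.9 CPM in the PTMA libraries. The groups did not overlap, though PTMA 3 lay close to vector 3. The log2 fold change was 0.22 (SE 0.08) and the edgeR adjusted p was 0.951. Of its exon bases 24.2% are shared with 6430562O15Rik on the opposite strand, and the use of strand in counting is not given, so reads of the 2 genes may not be told apart. Mrpl37, also found only in mitochondria, had 88.7, 93.2 and 92.8 CPM in the vector and 105, 99.3 and 93.8 CPM in the PTMA libraries (log2 fold change 0.12, SE 0.07). For Mrpl4 the PTMA values of 160, 158 and 150 CPM stood against 146, 147 and 145 CPM in the vector libraries (log2 fold change 0.10, SE 0.06). In each of Mrps27, Mrpl37 and Mrpl4, PTMA 3 was the lowest PTMA library and lay nearest to the vector group.

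Mrpl2, a core protein with a bacterial counterpart that lies near the peptidyl transferase centre, had the largest fold change of all members. It stood at 57.9, 58.7 and 68.5 CPM in the vector and 72.7, 77.2 and 67.9 CPM in the PTMA libraries, so that vector 3 and PTMA 3 crossed. Its log2 fold change was 0.23 (SE 0.09, edgeR adjusted p = 0.951). The next smallest p-values belonged to Mrpl14 of the core (28.2 ± 3.43 CPM in vector and 32.4 ± 1.74 in PTMA, SD, n = 3 each), Mrps11 (47.7 ± 1.99 and 52.9 ± 3.5997) and Mrps26 (68.8 ± 5.96 and 75.7 ± 2.93). The members with negative log2 fold changes were 9 in all. Among them were Mrps21, a small subunit protein with a bacterial counterpart (37.3, 32.1 and 47.4 CPM in the vector and 37.0, 38.1 and 32.8 CPM in the PTMA libraries), Mrpl9 (-0.09, SE 0.12), Mrpl47 (-0.09, SE 0.14), Mrps5 (-0.08, SE 0.09), Mrps35 (-0.03, SE 0.11) and Mrpl50 (-0.02, SE 0.16). The vector libraries of Mrps21 held both the highest and the lowest of the 6 values.

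The large and small subunits moved together from library to library. Summed over genes, the large subunit stood at 2586, 2529 and 3129 CPM in the vector and at 2892, 3037 and 2784 CPM in the PTMA libraries. The small subunit stood at 1433, 1372 and 1688 CPM in the vector and at 1536, 1648 and 1513 CPM in the PTMA libraries. Vector 3 was the highest library for both sums. The ratio of large to small, in summed FPKM, was 2.01, 2.06 and 2.03 in the vector and 2.10, 2.05 and 2.07 in the PTMA libraries. The groups overlapped, with means of 2.03 ± 0.03 and 2.08 ± 0.03 (SD, n = 3 each), and the difference in the log2 ratio was 0.03. This ratio does not depend on how libraries are scaled to each other. It follows mainly from the number of genes, since the mean per gene was 23.3 to 27.8 FPKM in the large and 19.6 to 23.1 FPKM in the small subunit. Rescaled to principal transcripts the ratio was 1.97 ± 0.03 in vector and 2.004 ± 0.02 in PTMA (SD, n = 3 each).

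**Figure D5:**
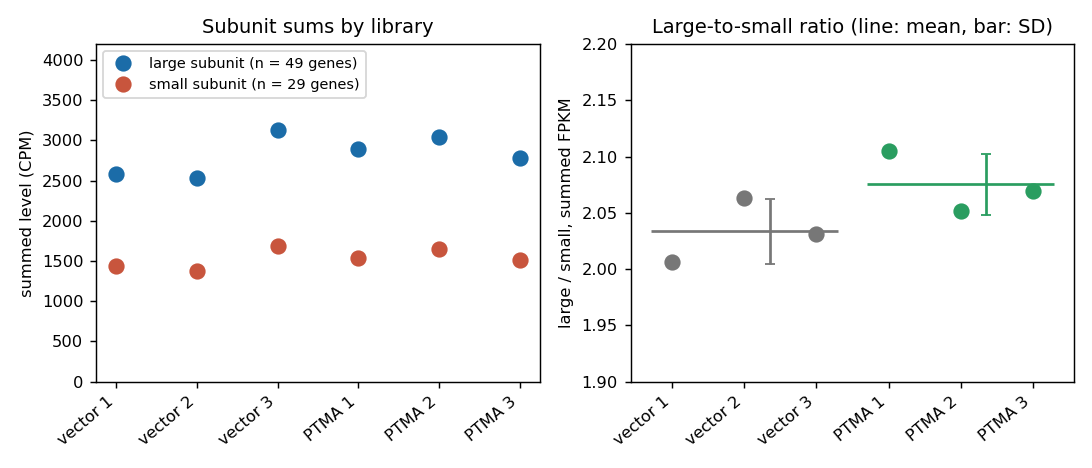
Left, summed CPM (vertical) of the 49 large subunit and 29 small subunit genes in each library (horizontal). Right, the ratio of summed FPKM of large to small subunit in each library, on an axis that starts at 1.9, with lines at the group means of 2.03 and 2.08 and bars of 1 SD (n = 3).

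Some symbols do not name the subunit in which the protein sits. Mrps18a and Mrps30 are large subunit proteins in structures of the mammalian mitochondrial ribosome, and Mrps36 is a component of the oxoglutarate dehydrogenase complex of the citric acid cycle. Mrps18a, Mrps18b and Mrps18c descend from the same bacterial protein, and Mrps18c is the one that keeps its place. Mrps18a had 68.0, 61.9 and 67.5 CPM in the vector and 73.9, 70.9 and 62.5 CPM in the PTMA libraries (log2 fold change 0.07, SE 0.09). Mrps18b had 53.8, 56.3 and 53.9 CPM in the vector and 58.1, 54.5 and 51.5 CPM in the PTMA libraries (log2 fold change 0.00056, SE 0.08). The groups overlapped for all 3 paralogs, and Mrps18c alone of them stood out in vector 3. Mrps30 had 68.2 ± 9.60 CPM in vector and 70.4 ± 4.96 in PTMA, and Mrps36 had 46.4 ± 10.6 and 49.2 ± 4.34 (SD, n = 3 each). With Mrps18a and Mrps30 counted as large and Mrps36 left out, 47 of 51 large and 21 of 26 small subunit genes had positive log2 fold changes, with medians of 0.07 and 0.06.

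Members were also grouped by place and origin. The 5 proteins of the stalk that recruits translation factors (Mrpl10, Mrpl11, Mrpl12, Mrpl53 and Mrpl54) had a median log2 fold change of 0.07, and 5 of 5 were positive. Mrpl12, the stalk protein present in several copies per ribosome, had 99.0 ± 8.80 CPM in vector and 110 ± 11.2 in PTMA (SD, n = 3 each). The 7 of the central protuberance (Mrpl18, Mrpl27, Mrpl38, Mrpl40, Mrpl46, Mrpl48 and Mrpl58) had a median of 0.08, and 12 assigned to the polypeptide exit tunnel one of 0.04. The 5 of the small subunit head had a median of 0.08. For origin, Mrps18a and Mrps18b were counted as found only in mitochondria, although they descend from a bacterial protein. Large subunit proteins with a bacterial counterpart (29) and those found only in mitochondria (22) had medians of 0.07 each, and the corresponding small subunit proteins (16 and 10) had medians of 0.05 and 0.06. These medians moved with vector 3. Without it they were 0.22 in the stalk, 0.21 in the central protuberance, 0.16 in the exit tunnel and 0.14 in the head. In the large subunit they were then 0.19 for proteins with a bacterial counterpart and 0.19 for those found only in mitochondria, and in the small subunit 0.16 and 0.19. Differences between these groups were not tested.

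Of the mitochondrial ribosomal proteins whose symbols do not begin with Mrp, 5 were examined. Dap3, a GTP-binding protein of the small subunit, had 107, 105 and 122 CPM in the vector and 132, 124 and 120 CPM in the PTMA libraries (log2 fold change 0.17, SE 0.08, edgeR adjusted p = 0.951). Gadd45gip1 of the large subunit had 75.6 ± 5.72 CPM in vector and 75.0 ± 7.03 in PTMA (SD, n = 3 each). None of these 5 genes passed by edgeR or DESeq2 or had an unadjusted p under 0.05, 4 had positive log2 fold changes, and their median was 0.0094, against 0.07 for the 78 members. The other 3 were Aurkaip1 (log2 fold change 0.11), Ptcd3 (0.0094) and Chchd1 (0.0084). The list of assembly and rRNA modification factors, which also held the tRNA synthetase Lars2, had 31 genes tested. Of these, 0 passed by edgeR or DESeq2. At an unadjusted edgeR p under 0.05 there was 1 gene in each direction, Mrm1 higher and Lars2 lower. The shares of all genes were 1.92% higher and 2.72% lower. Positive log2 fold changes were found in 23 of the 31, against 46.8% of all genes, with a median of 0.07. Mrm1, an rRNA methyltransferase, had 27.1, 31.8 and 30.4 CPM in the vector and 33.8, 36.2 and 34.5 CPM in the PTMA libraries, with no overlap (edgeR adjusted p = 0.951). Lars2, the mitochondrial leucyl-tRNA synthetase, lay the other way without overlap, at 436, 360 and 378 CPM in the vector and 303, 312 and 345 CPM in the PTMA libraries (log2 fold change -0.29, SE 0.09, edgeR adjusted p = 0.951). Of 18 translation factors tested, 0 passed by edgeR or DESeq2, 0 had an unadjusted p under 0.05 and 14 were positive, with a median of 0.03. The insertase Oxa1l had 50.6 ± 1.48 CPM in vector and 55.8 ± 2.26 in PTMA, and the elongation factor Gfm1 had 54.2 ± 0.81 and 51.1 ± 2.36 (SD, n = 3 each). These lists and the member groups were compared by their values only.

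The RNA partners of these proteins shared the highest library, as did the cytosolic ribosomal proteins described below. The 2 mitochondrial rRNAs, which have short poly(A) tails and are only partly captured by poly(A) selection, summed to 3620, 2700 and 5609 CPM in the vector and 3498, 3734 and 4234 CPM in the PTMA libraries. The 13 mitochondrially encoded mRNAs summed to 15940, 15348 and 21126 CPM in the vector and 15747, 19687 and 19497 CPM in the PTMA libraries. None of the genes of either kind passed by edgeR or DESeq2 or had an unadjusted edgeR p under 0.05. The rRNA mt-Rnr1 of the small subunit had 693 ± 221 CPM in vector and 669 ± 46.1 in PTMA, the cytochrome oxidase mRNA mt-Co2 had 956 ± 145 and 1041 ± 63.0, and mt-Nd6 of complex I had 101 ± 20.6 and 96.6 ± 17.0 (SD, n = 3 each). Vector 3 was the highest library for both sums and vector 2 the lowest.

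The cytosolic ribosome, which makes all other proteins of the cell, offered the nearest comparison. Its 76 protein genes had positive log2 fold changes in 22, with a median of -0.03, where 69 of 78 mitochondrial members were positive, with a median of 0.07. Without vector 3 the cytosolic count was 68 of 76, with a median of 0.11. The cytosolic genes summed to 28940, 26576 and 35256 CPM in the vector and 29762, 30696 and 29425 CPM in the PTMA libraries. Vector 3 was thus the highest library and vector 2 the lowest here too. The median log2 difference of vector 3 from vector 1 and 2 was 0.42 in the cytosolic and 0.30 in the mitochondrial genes. For every 100 CPM of cytosolic ribosomal proteins there were 13.9, 14.7 and 13.7 CPM of mitochondrial ones in the vector and 14.9, 15.3 and 14.6 CPM in the PTMA libraries. The groups overlapped, with PTMA 3 just below vector 2, and the means were 14.1 ± 0.54 and 14.9 ± 0.33 (SD, n = 3 each). Unlike the level itself, this ratio was lowest in vector 3. No test of the difference between the 2 ribosomes was made.

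The members lie on 17 chromosomes, and many have a neighbour at their start. In GENCODE M21, 18 of 78 (23.1%) have the start of another protein-coding gene on the opposite strand within 1000 bases upstream, against 10.7% of 12429 protein-coding genes tested. Among the neighbours are Sars2 (the mitochondrial seryl-tRNA synthetase) beside Mrps12 and Ptcd2 beside Mrps27. Exons shared with another gene make up over 10% of the exon bases in 17 members, most in Mrpl53 (88.0%), Mrps25 (69.8%) and Mrps34 (63.4%). The counts of these genes are uncertain, since reads of genes on opposite strands cannot be told apart without strand, and those of same-strand overlaps, as in Mrpl53, not even with it. Mrpl46 and Mrps11, members of the large and the small subunit, overlap each other on opposite strands by 173 bases.

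Promoters were read because the members' levels moved together across libraries. RefSeq starts on GRCm38.p6 were matched for 69 members, with 250 bases before and 50 after the start. Letters of 4 motifs were searched on both strands: CCGGAAG of ETS factors such as GABP, the NRF1 motif, AAGATGGCG of YY1 and CACGTG, the E-box of Myc. GABP, NRF1 and YY1 are known regulators of nuclear genes for mitochondrial proteins. CCGGAAG was found in 26 of 69 members (37.7%), against 20.5% of 9888 tested protein-coding genes with a promoter. The NRF1 motif was found in 13 (18.8%, against 11.7%), AAGATGGCG in 8 (11.6%, against 3.61%) and CACGTG in 5 (7.25%, against 11.5%). A match is a description of these letters and not a binding site. The 120 bases before the start are shown for 6 members, 3 of them among those with the smallest p and 3 that show the other arrangements, with the motif letters in capitals.
Mrps27, chr13:99344666-99344785 (+ strand): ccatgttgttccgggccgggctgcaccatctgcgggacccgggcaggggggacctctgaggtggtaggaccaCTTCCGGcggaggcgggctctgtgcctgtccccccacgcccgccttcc
Mrps26, chr2:130563637-130563756 (+ strand): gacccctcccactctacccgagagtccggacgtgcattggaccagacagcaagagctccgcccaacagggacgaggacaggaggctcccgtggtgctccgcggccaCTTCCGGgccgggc
Mrpl12, chr11:120484517-120484636 (+ strand): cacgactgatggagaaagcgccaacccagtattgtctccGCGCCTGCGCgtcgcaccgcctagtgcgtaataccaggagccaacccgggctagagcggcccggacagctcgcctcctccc
Mrpl32, chr13:14613038-14613157 (- strand): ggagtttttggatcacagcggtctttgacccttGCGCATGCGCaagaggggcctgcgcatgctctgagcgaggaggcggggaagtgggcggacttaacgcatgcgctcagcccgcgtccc
Mrps11, chr7:78783011-78783130 (+ strand): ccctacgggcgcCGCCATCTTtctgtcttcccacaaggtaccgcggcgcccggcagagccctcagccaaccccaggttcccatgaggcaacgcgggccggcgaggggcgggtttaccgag
Mrpl36, chr13:73330889-73331008 (+ strand): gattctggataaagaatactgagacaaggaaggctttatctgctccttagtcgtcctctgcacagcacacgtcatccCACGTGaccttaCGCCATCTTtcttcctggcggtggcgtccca
The capitals mark CCGGAAG in reverse complement in Mrps27 and Mrps26. In Mrpl12 they mark the NRF1 motif in reverse complement, in Mrpl32 a form of it that reads the same on both strands, in Mrps11 AAGATGGCG in reverse complement, and in Mrpl36 the E-box and then AAGATGGCG in reverse complement. These members had different library profiles: Mrpl36 and Mrpl32 were highest in vector 3, at 92.1 and 43.1 CPM, whereas Mrps27, Mrps26, Mrpl12 and Mrps11 were highest in PTMA 2. Mrps27, Mrps26 and Mrps11 were picked for a small p with a positive log2 fold change, which favours a PTMA library as the highest. A link between profile and motif was not tested. The genes of the factors themselves did not pass the test: of 11 regulators tested 3 had positive log2 fold changes, against 46.8% of all genes. Nrf1 stood at 0.09 (SE 0.07), Yy1 at -0.05 (SE 0.08) and Myc at -0.03 (SE 0.06). The GABP genes Gabpa, Gabpb1 and Gabpb2 stood at -0.0025 (SE 0.09), 0.12 (SE 0.08) and -0.22 (SE 0.13). Max, the partner of Myc, had 46.8, 49.4 and 43.8 CPM in the vector and 92.7, 49.1 and 46.9 CPM in the PTMA libraries, so that its higher mean came from PTMA 1 alone. Sp1 had 32.2 ± 2.85 CPM in vector and 28.1 ± 1.53 in PTMA (SD, n = 3 each).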

How the data were processed

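Counts and FPKM of 6 bulk RNA libraries, 3 with vector and 3 with PTMA, were grouped and numbered by the sample titles. Per the labels' protocols, the RNA was poly(A) selected and sequenced in pairs. The authors deposited whole-number counts per gene with no normalization, as named per the file headers. FPKM stand beside them in the deposited table, per the file headers. HISAT2 2.0, StringTie 1.3.0, Bowtie 0.12.2 and mm8 are listed, with no role, per the submitters' processing notes. The table has GRCm38 coordinates: 99.7% of 27405 rows found in GENCODE M21 share a start or end with it. Strand use in counting is not given in the sources used here.

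A gene was protein-coding where its list of transcript types holds that type (11 members have no other type). Counts were fitted with edgeR 4.0.16 in R 4.3.3, by TMM scaling, filterByExpr with a minimum count of 10, and the quasi-likelihood test on group alone, with Benjamini-Hochberg adjustment over 16592 genes and a threshold of 0.05. SE is the size of the log2 fold change over the square root of F. Fold changes are PTMA minus vector. Members had 383 to 10406 counts per library, so the number of libraries limits the precision. Named genes are the 5 highest and 5 lowest by FPKM per subunit, the 6 per direction with the smallest p, members whose groups do not overlap, 5 whose symbol and place differ, and the smallest p per direction in each other mitochondrial list. Other named genes were picked after their values were seen. The members and lists were chosen with earlier results of these data known. Alternatives were median-of-ratios or same-sum scaling, no filter, a replicate block, DESeq2 1.42.0, limma 3.58.1 on log2(FPKM + 1) or log2(FPKM + 0.1) at a mean FPKM of at least 1 or unfiltered, each library left out, subunits by structure, and for the subunit ratio other sums. The edgeR procedure was tested on simulated counts. Replicates of a group differed by a chi-square per gene of 17.6 to 84.7, so none was a duplicate. Protein sequences were not used here.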

Additional observations from a re-analysis of the deposited data

How the results depend on the processing

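No member passed the threshold in any of the fits (edgeR, DESeq2, limma, and edgeR with each library left out in turn), where the lowest adjusted p of a named member was 0.196. Genes past the threshold over the whole table numbered 2 as reported, and also 2 under median-of-ratios or same-sum scaling. They numbered 0 with no filter on low counts, 0 with limma on log2(FPKM + 1) without a filter, 1 with limma on log2(FPKM + 1), 1 with limma on log2(FPKM + 0.1) and 47 with DESeq2; the cause was not tested. Leaving out a library gave 0 to 4 genes, a median log2 fold change of 0.0087 to 0.19 in the large and 0.013 to 0.17 in the small subunit, and 30 to 49 and 17 to 27 positive members. The difference in the log2 ratio of large to small subunit was then 0.02 to 0.04, and 0.01 to 0.04 over the other alternatives. Of 34 named members 3 changed sign in 8 other alternatives, all with values near 0: Mrpl32 (-0.013) and Mrps18b (-0.028) under same-sum scaling, and Mrpl50 with limma on log2(FPKM + 1) (0.0010 with the filter and without) and on log2(FPKM + 0.1) (0.0023).

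A replicate block gave 0 genes, 0 members, medians of 0.08 and 0.07 and 0.03 for the log2 ratio, with Mrpl50 at 0.00074 and Mrps18b at -0.00081. Deviations from the group means correlated at -0.12, -0.16 and -0.12 between libraries of equal number, which gives no sign of pairing. When a library was left out, 16 of the 34 named members changed sign at least once. Their ranges over the 6 fits were Mrpl13 -0.0066 to 0.23, Mrpl18 -0.013 to 0.26, Mrpl32 -0.080 to 0.15, Mrpl34 -0.029 to 0.22, Mrpl47 -0.17 to 0.077, Mrpl48 -0.021 to 0.21, Mrpl50 -0.11 to 0.19, Mrpl9 -0.17 to 0.0058, Mrps18b -0.043 to 0.056, Mrps18c -0.092 to 0.32, Mrps21 -0.23 to 0.054, Mrps23 -0.0040 to 0.13, Mrps30 -0.044 to 0.15, Mrps31 -0.0034 to 0.22, Mrps35 -0.077 to 0.078 and Mrps36 -0.018 to 0.28. The level per principal transcript and the counts of positive members were chosen after seeing the data. SEs were 0.06 to 0.21 on the log2 scale, and even Mrpl2 (0.23, SE 0.09) had an edgeR adjusted p of 0.951. A difference of that size was thus not called in Mrpl2. The smallest difference detectable with 3 libraries a group was not determined.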

Other observations

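The table also holds 5 rows for pseudogenes named after members, gene copies elsewhere in the genome that can share reads with the member. Mrpl23-ps1 had 4.09, 3.78 and 3.77 CPM in the vector and 4.96, 3.596 and 3.96 CPM in the PTMA libraries, beside 52.2 to 69.5 CPM for Mrpl23. Mrpl48-ps reached 1.64 CPM, Mrps36-ps1 1.13 CPM, Mrpl27-ps 0.982 CPM and Mrps36-ps2 0.532 CPM in their highest libraries. How reads that match both a member and its pseudogene were counted is not given in the sources used here, so the levels of Mrpl23, Mrpl27, Mrpl48 and Mrps36 are uncertain by amounts that were not tested.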
